A study of Mus musculus with 15 samples.

Results

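The genes described here encode deubiquitinases, the proteases that remove ubiquitin from proteins, and are those whose names mark them as ubiquitin-specific proteases (USP), OTU proteases, UCH hydrolases, Josephin (MJD) proteases or JAMM metalloproteases. Genes were taken by symbol, leaving out Usp3, Usp16, Usp18, Usp21 and Usp22 and symbols ending in os, -ps, x or y, and needed at least 10 reads in at least 3 of the 15 count tables. Of the 50554 genes in the tables, 71 had such a name and 57 also met the read minimum. These 57 were 38 USP, 9 OTU, 4 UCH, 3 Josephin and 2 JAMM genes, and Usp6nl. Usp6nl carries the prefix but encodes a RAB GTPase-activating protein, not a deubiquitinase. Several of the 57, among them Usp12, Usp46 and Usp48, are also known to act on histones, so the set is a set of names and not of substrates.

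A deubiquitinase either recycles ubiquitin, rescues a protein from the proteasome, or ends a signal that a ubiquitin chain carries. In dendritic cells, lipopolysaccharide (LPS, a component of the outer membrane of Gram-negative bacteria) is sensed by TLR4, and TRAF6, TRAF3 and the kinases behind them are activated and shut off through ubiquitin chains. Several OTU and USP proteases, A20 among them, are known brakes or modulators of those steps.

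The cells were BMDCs, dendritic cells that present antigen to T cells and that were grown here from mouse bone marrow with the cytokine GM-CSF. All mice carried a tamoxifen-inducible Cre recombinase (CreERT2) and a floxed Mysm1 allele, which tamoxifen removed, and marrow was taken more than 12 weeks later and cultured for 9 days. Mysm1 encodes a deubiquitinase that is not among the 57. In Δ/+ cells the other Mysm1 allele was wild type, and in Δ/DN cells it encoded catalytically inactive MYSM1, so both genotypes carried the deletion and kept 1 undeleted allele. Cells were left unstimulated (US) or held for 18 h with 10 ng/mL LPS, giving 4 Δ/+ US, 4 Δ/DN US, 3 Δ/+ LPS and 4 Δ/DN LPS libraries. Library names tie these to 8 cultures, 7 of them sequenced with and without LPS. Whether each culture came from its own mouse was not stated, so p-values measure the spread between cultures at most. The design text of the series gives the lettered mouse groups the opposite genotypes to those in the sample fields. Genotype directions below follow the sample fields, and every one of them would change sign if the design text were the right one.

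Libraries held 37256651 to 104041282 counted reads. The library names also fall into set 2 and set 3, a split that the labels do not explain. Set 3 comprised replicate 4 of Δ/+ US and replicates 3 and 4 of both Δ/DN groups, and the model carried the set as a term. Levels are given as CPM, a gene's reads relative to the TMM-adjusted read total of its library. Of 15 dendritic cell markers, Itgax stood at 842 to 1751 CPM and Cd74 at 2819 to 7739 CPM, while Flt3 stood at 0.754 to 2.66 CPM and Xcr1, Clec9a and Cd209a had group means of no more than 0.652, 2.49 and 1.0 CPM. Macrophage markers were present in the same libraries, with group means of 368 to 764 CPM for Csf1r and 315 to 920 CPM for Gpnmb. The T cell gene Cd3e did not exceed 0.218 CPM and the B cell gene Cd79a did not exceed 0.562 CPM. Mysm1 itself stood at 46.3 to 54.1 CPM in Δ/+ US, 28.1 to 48.9 CPM in Δ/DN US, 41.3 to 44.6 CPM in Δ/+ LPS and 30.8 to 40.0 CPM in Δ/DN LPS. Total Mysm1 counts do not tell the wild-type from the inactive allele. Xist was near 0 in all libraries but those of Δ/DN culture 4, at 1144 and 1166 CPM. The summed neutrophil markers were also highest in that culture (959 CPM without and 1132 CPM with LPS, against 53 to 187 CPM elsewhere). In Δ/DN culture 3 without LPS, 17 interferon-stimulated genes summed to 4649 CPM, against 397 to 1948 CPM in the other US libraries.

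Promoter windows from RefSeq (build GRCm38.p6) were found for 46 of the 57 genes, 53 windows in all, each of 300 bases, of which 250 lie before the annotated start of transcription. The sequences of 3 genes on which the LPS results turn are shown. Otud1 and Usp12 rose and Usp36 fell. They are given 5′ to 3′ on the strand of the gene, from the far end of the window to the start or to the first base that a GENCODE exon covers. Capitals mark CG dinucleotides. Otud1 lies at chr2:19657481-19657730 on the + strand, Usp12 at chr5:146795007-146795206 on the - strand, and Usp36 at chr11:118290245-118290494 on the - strand.
Otud1: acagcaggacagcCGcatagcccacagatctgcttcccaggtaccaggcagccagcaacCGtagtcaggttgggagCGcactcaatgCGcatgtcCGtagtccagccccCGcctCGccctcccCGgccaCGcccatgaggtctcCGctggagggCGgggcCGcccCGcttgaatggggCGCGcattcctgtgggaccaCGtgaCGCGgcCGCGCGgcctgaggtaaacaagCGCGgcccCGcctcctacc
Usp12: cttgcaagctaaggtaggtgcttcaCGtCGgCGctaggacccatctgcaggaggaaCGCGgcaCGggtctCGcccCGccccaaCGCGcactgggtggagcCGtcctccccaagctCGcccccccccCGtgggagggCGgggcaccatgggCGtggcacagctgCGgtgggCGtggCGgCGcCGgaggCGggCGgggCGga
Usp36: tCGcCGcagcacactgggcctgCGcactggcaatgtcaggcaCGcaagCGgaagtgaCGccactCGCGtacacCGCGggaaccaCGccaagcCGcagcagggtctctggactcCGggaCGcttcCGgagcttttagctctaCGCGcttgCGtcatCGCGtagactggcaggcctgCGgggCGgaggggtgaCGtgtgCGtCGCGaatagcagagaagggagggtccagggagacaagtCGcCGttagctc

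In the 250 bases before the start there were 24 CG dinucleotides for Otud1, 30 for Usp12 and 28 for Usp36, and the window of Usp25 held 47. The median over the members' windows was 22 (quartiles 10 and 28), against 6 (quartiles 2 and 16) over all 32851 windows. All 4 of these windows were above the median of the members, the 3 of rising genes and that of the falling Usp36. Motifs were searched on both strands of the whole 300-base window, and a match is only a run of letters. Shares of members count genes with a match in any of their windows, while shares of all windows count single windows. A gene with several windows thus had more chances of a match, and the shares are not fully alike. None of the 46 genes held the kappaB consensus, which 5.8% of all windows held. The interferon-response motif GAAANNGAAA was held by Usp17ld and Usp49 (4.35% of 46, against 3.44% of all windows). The GAS motif TTCNNNGAA was held by Stambpl1 and Usp17ld (4.35%, against 8.3%). The AP-1 motif TGANTCA was held by Otub2, Usp10, Usp31 and Usp38 (8.7%, against 7.81%), and the CRE motif TGACGTCA by Zranb1 (2.17%, against 1.79%). None of the 5 motifs was found in the windows of Usp25, Usp12, Otud1 and Usp36.

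Expression across the family ran from no reads upward. To compare genes, levels were set per kilobase of exon (RPKM, with exon lengths from GENCODE). In Δ/+ US the highest was Usp25, a protease known to act on TRAF3 and TRAF6, at 35.4 ± 4.75 RPKM (SD, n = 4). Usp7, which stabilises MDM2, followed at 34.7 ± 2.81 RPKM. The difference between these first genes was smaller than their spread. Usp4 came next at 29.0 ± 1.66 RPKM. Usp5, which disassembles free ubiquitin chains, stood at 23.1 ± 1.16 RPKM and Otub1, an inhibitor of ubiquitin-conjugating enzymes, at 23.0 ± 0.684 RPKM, and this pair did not differ beyond its spread. The lowest 5 were Usp11 (0.334 ± 0.157 RPKM), Usp49 (0.102 ± 0.0232 RPKM), Usp44 (0.0194 ± 0.0189 RPKM), and Usp17ld and Usp43, which had no reads in the 4 Δ/+ US libraries.

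**Figure D1:**
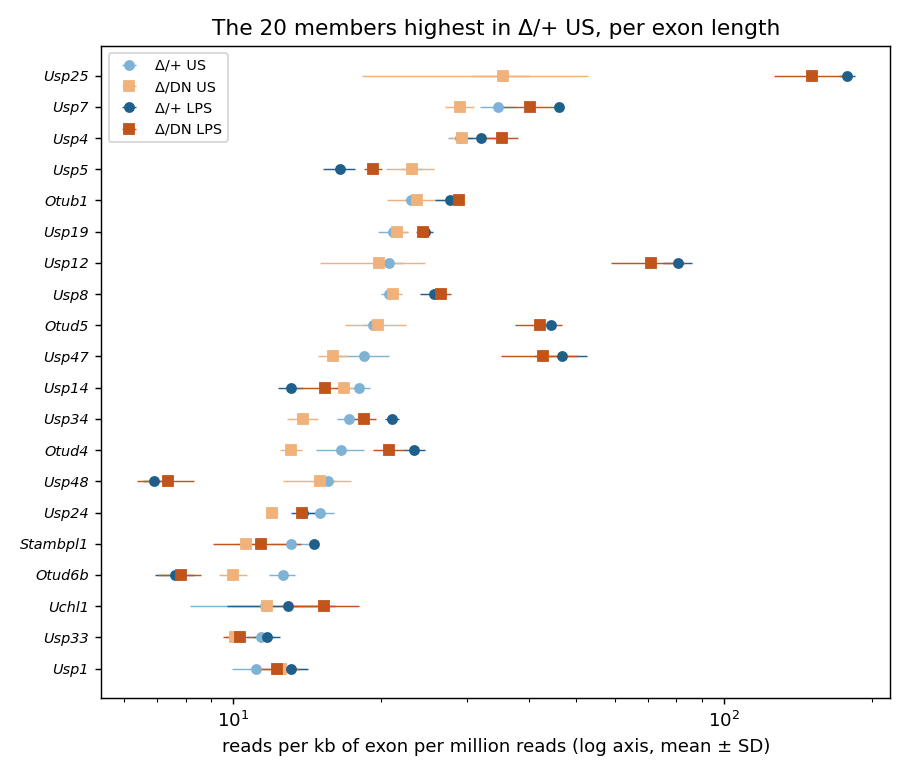
Level per exon length (RPKM, log axis, mean ± SD) of the 20 members highest in Δ/+ US, for the 4 groups of 3 or 4 libraries. Usp25 stands at about the level of Usp7 without LPS and far to the right of it with LPS, and Usp12, Usp47 and Otud5 shift right while Usp48 and Otud6b shift left.

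The order changed with LPS. Usp25 reached 178 ± 6.57 RPKM in Δ/+ (n = 3) and 151 ± 24.8 RPKM in Δ/DN (n = 4). Usp12 moved from rank 7 to rank 2, at 80.5 ± 5.48 RPKM in Δ/+ LPS and 71.1 ± 12.2 RPKM in Δ/DN LPS. Behind it came Usp47 (46.8 ± 5.8 RPKM), Usp7 (46.1 ± 0.388 RPKM) and Otud5 (44.5 ± 0.111 RPKM) in Δ/+ LPS. Usp47 did not differ from either of the other two beyond its spread, and Usp7 and Otud5 were further apart than theirs. Summed over the 57 genes, the level was 2672 ± 137 CPM in Δ/+ US and 4134 ± 151 CPM in Δ/+ LPS. The sums in Δ/DN were 2440 ± 155 CPM and 3838 ± 341 CPM. These sums rest on the scaling, as a smaller TMM factor gives a higher CPM. The factors were 1.035 to 1.332 in US libraries and 0.7344 to 0.9397 in LPS libraries. Sums relative to unadjusted read totals were not compared, so a larger share of reads with LPS is not shown. Usp25 alone made up 6.35 ± 0.983% of the summed CPM in Δ/+ US and 20.6 ± 0.049% in Δ/+ LPS. In Δ/DN its share was 6.83 ± 2.81% without and 18.7 ± 1.48% with LPS. In these bulk libraries, more cells of a type and more RNA per cell cannot be told apart.

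Some members sat near the read minimum. Just inside it, Usp17ld reached 10 reads in 3 tables, Usp43 in 5 and Usp44 in 10, with at most 20, 30 and 49 reads in a table. Just outside, Usp17le reached it in 2 tables, and Otud7a and Usp17lc in 1. The 14 names outside had at most 21 reads in a table, and 5 of them had no reads. They were Otud6a, Otud7a, Stambp-ps1, Stambp-ps2, Usp13, Usp17la, Usp17lb, Usp17lc, Usp17le, Usp26, Usp29, Usp46os1, Usp50 and Usp51, of which the pseudogene and antisense symbols end in a digit and so were not removed by their ending. Usp17ld belongs to a cluster of near-identical copies and Uchl4 is a near copy of Uchl3, so reads of these genes may have been shared between copies. Whether counting used strand was not given, so reads of a gene and of an overlapping gene on the other strand cannot be told apart either. All 57 members passed edgeR's filter on low counts.

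The first question was which deubiquitinase genes LPS changed. In Δ/+ cells 22 of the 57 rose and 19 fell (edgeR's quasi-likelihood test, Benjamini-Hochberg adjusted p under 0.05 over all 20865 genes tested). That is 71.9% of the members, against 47.7% of all genes tested, of which 22.4% rose and 25.3% fell. In Δ/DN cells 25 rose and 20 fell, which is 78.9% of the members against 48.2% of all genes (23.1% higher and 25.1% lower). A change is called more readily for genes with many reads, as most members had. Shares among genes of like read counts were not computed, here or for the roles below. Usp43 and Usp17ld met the read minimum in LPS libraries alone, so their membership rests on the group where they are high. Without them 20 of 55 rose and 19 fell in Δ/+, and 24 rose and 20 fell in Δ/DN. The groups did not overlap for 41 members in Δ/+ (71.9%, against 52.1% of all genes) and for 42 in Δ/DN (73.7%, against 40.9%). The members' median log2 fold change was 0.14 in Δ/+ and 0.16 in Δ/DN, beside −0.08 and −0.09 over all genes. Of the 57, 38 were called in both genotypes, all in the same direction, 21 up and 17 down. These were 92.7% of the Δ/+ calls and 84.4% of the Δ/DN calls. Across the 7 cultures sequenced with and without LPS, 24 members were higher with LPS in every culture and 19 were lower in every culture. Usp43 is among the 21 and among the 24. The agreement between genotypes and between cultures was not counted over all genes, so neither is shown to be particular to the members. The same comparison within set 2 alone called 24 up and 18 down in Δ/+ (48.1% of all genes were called there), and 24 up and 14 down in Δ/DN (41.4% of all genes). Within set 3 alone (2 Δ/DN cultures) it called 4 up and 1 down, where 9.47% of all genes were called.

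**Figure D2:**
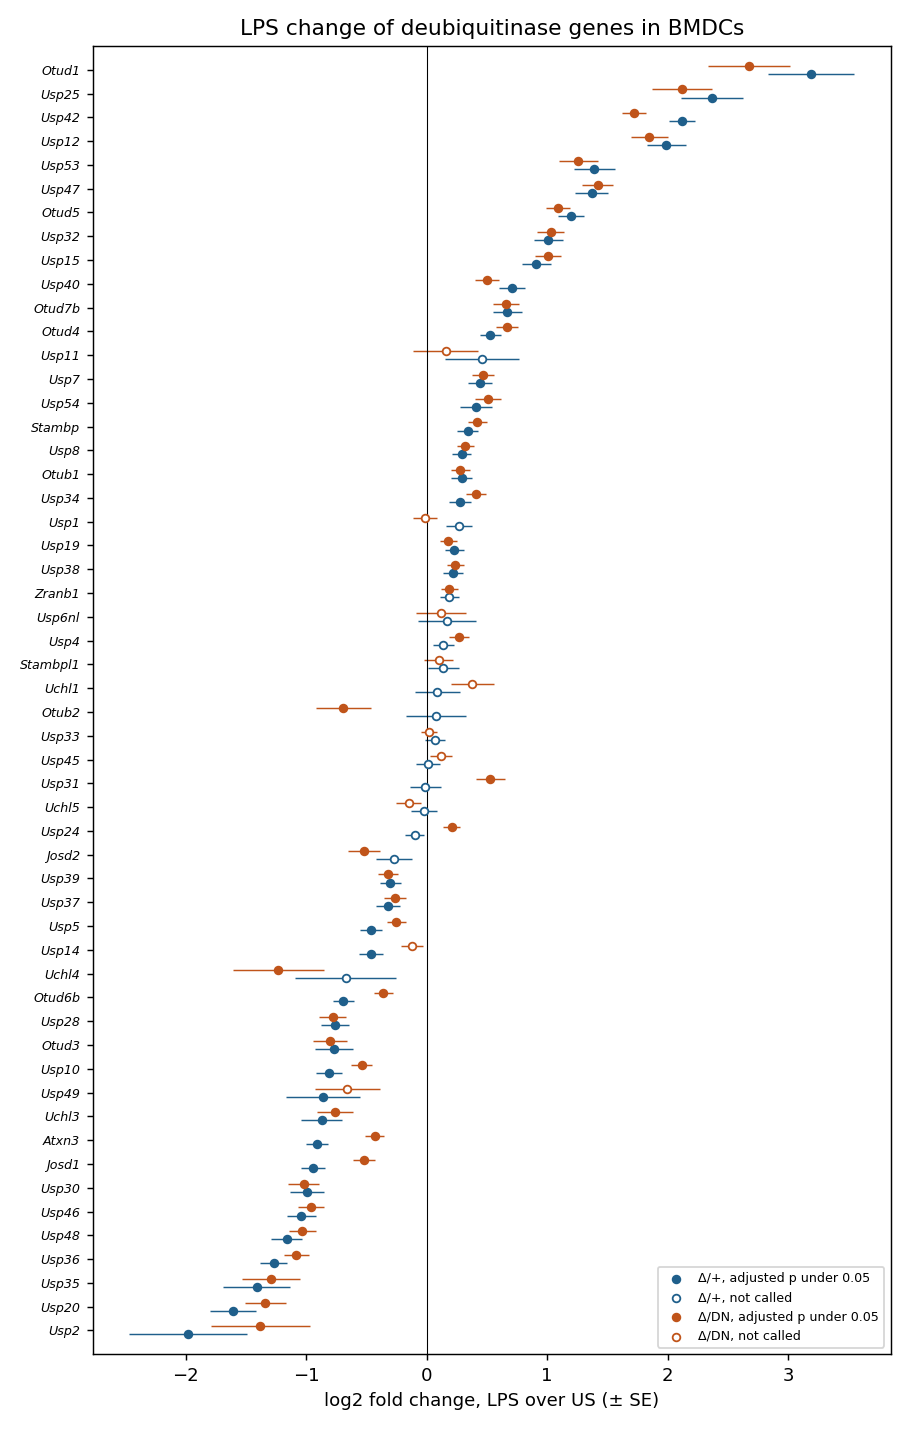
Log2 fold change with LPS (± SE) of 54 members in Δ/+ (blue) and Δ/DN (orange), ordered by the change in Δ/+; filled points passed an adjusted p of 0.05. Usp17ld, Usp43 and Usp44, with few reads, are not drawn. Both genotypes run from Otud1 at the top to Usp2 at the bottom, and members called in both genotypes lie on the same side of 0 in both.

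Among the 17 members with known parts in TLR, NF-kB and interferon signalling, 10 rose and 3 fell in Δ/+, and 13 rose and 4 fell in Δ/DN. That is 76.5% and 100% called, against 47.7% and 48.2% of all genes. Usp25 had the highest level. It stood at 167, 164, 199 and 145 CPM in the Δ/+ US libraries and at 826, 839 and 886 CPM in the Δ/+ LPS libraries. In Δ/DN it stood at 129, 115, 291 and 144 CPM without LPS and at 823, 694, 806 and 567 CPM with it. Every LPS library was above every US library, with 1 US library (Δ/DN replicate 3) higher than the other US libraries. That library also held the high sum of interferon-stimulated genes given above (4649 CPM), whose part in its Usp25 and Usp12 levels was not tested. The log2 fold changes were 2.37 ± 0.26 for Δ/+ (SE, adjusted p = 5.24e-06) and 2.12 ± 0.25 for Δ/DN (adjusted p = 9.27e-06).

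Usp12, which works with the WD-repeat proteins WDR48 and WDR20, stood at 85.1, 84.6, 94.5 and 95.5 CPM in Δ/+ US and at 323, 352 and 370 CPM in Δ/+ LPS. In Δ/DN its values were 74.9, 72.6, 117 and 78.8 CPM without LPS and 353, 289, 347 and 241 CPM with it. The treatments were far apart in both genotypes, and again replicate 3 of Δ/DN US was the highest of the US libraries. Usp12 rose by 1.99 ± 0.16 on the log2 scale in Δ/+ (adjusted p = 2.06e-07), and the rise was 1.85 ± 0.15 in Δ/DN (adjusted p = 2.33e-07). Usp46, the close relative of Usp12 that uses the same cofactors, fell instead. It stood at 15.4, 16.2, 16.2 and 19.3 CPM in Δ/+ US and 7.21, 8.11 and 8.56 CPM in Δ/+ LPS, and at 13.9, 18.0, 16.3 and 16.6 CPM in Δ/DN US and 7.62, 8.37, 7.74 and 9.58 CPM in Δ/DN LPS. The US and LPS ranges did not meet, with log2 fold changes of −1.04 ± 0.12 (adjusted p = 5.76e-06) and −0.96 ± 0.11 (adjusted p = 4.35e-06).

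Otud5, known as DUBA, removes ubiquitin chains from TRAF3 and restrains interferon production. It stood at 86.4, 82.8, 84.3 and 77.5 CPM in Δ/+ US and at 191, 190 and 190 CPM in Δ/+ LPS. The Δ/DN libraries stood at 81.9, 77.5, 102 and 76.5 CPM without LPS and at 189, 183, 197 and 151 CPM with it. Otud5 was thus about as high in both genotypes and rose by 1.2 ± 0.11 (adjusted p = 7.81e-07) and 1.09 ± 0.1 (adjusted p = 1e-06) on the log2 scale. Otud1, which is not among the genes with the smallest p and is shown because its fold change was the largest among the members with a mean of at least 1 CPM, rose from a low level. Its values were 2.25, 1.84, 1.5 and 3.31 CPM in Δ/+ US and 15.9, 22.1 and 15.3 CPM in Δ/+ LPS. In Δ/DN they were 1.57, 1.24, 2.81 and 1.21 CPM without LPS and 11.2, 7.06, 18.8 and 6.34 CPM with it. The ranges did not overlap, and the Δ/DN LPS libraries were widely spread. The log2 fold changes were 3.19 ± 0.36 (adjusted p = 7.44e-06) and 2.68 ± 0.34 (adjusted p = 2e-05).

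The other rising members of this role were Usp15, a relative of Usp4 (log2 fold change 0.91 in Δ/+ and 1.01 in Δ/DN), Otud7b, which acts on TRAF3 (0.67 and 0.66), Otud4 (0.53 and 0.67), Usp8, which works on endosomes (0.29 and 0.32), Otub1 (0.29 and 0.28) and Usp38 (0.22 and 0.24). Usp31 (0.53), Usp4 (0.27) and Zranb1, which cleaves atypical ubiquitin chains (0.19), passed the test in Δ/DN alone. Their values in Δ/+ were −0.01, 0.14 and 0.19. The Zranb1 call was lost in each of 8 refits that left out 1 library, and the Usp38 call in Δ/+, where the groups overlapped, held in 2 of 7. The fallers were Usp20 (−1.61 and −1.34), Usp10, the partner of the stress-granule protein G3BP1 (−0.81 and −0.54), and Usp2, an output gene of the circadian clock (−1.98 and −1.38). Usp2 was low, at 1.01 to 1.96 CPM in Δ/+ US and 0.236 to 0.545 CPM in Δ/+ LPS. In Δ/DN its groups overlapped, at 1.68 to 3.51 CPM and 0.393 to 1.7 CPM. Otub2 fell in Δ/DN alone (−0.69), with 0.08 in Δ/+.

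Of the 11 members with parts in the p53 response, DNA damage and the cell cycle, 4 rose and 4 fell in Δ/+ and 5 rose and 4 fell in Δ/DN. That is 72.7% and 81.8% called, against 47.7% and 48.2% of all genes. The risers of both genotypes include Usp43, a member through its LPS libraries alone. Usp42, which deubiquitinates p53, had the smallest p of all members in both genotypes. It stood at 17.4, 20.2, 19.8 and 21.7 CPM in Δ/+ US and at 79.1, 91.7 and 82.2 CPM in Δ/+ LPS. In Δ/DN it went from 17.5, 17.3, 18.4 and 19.1 CPM to 61.2, 57.6, 69.2 and 49.1 CPM. Each LPS library was above all US libraries, and the Δ/+ LPS libraries were above the Δ/DN LPS libraries. Its log2 fold changes were 2.12 ± 0.11 for Δ/+ (adjusted p = 5.81e-09) and 1.72 ± 0.1 for Δ/DN (adjusted p = 1.73e-08).

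Usp47, a relative of Usp7 that stabilises DNA polymerase beta, stood at 100, 107, 103 and 130 CPM in Δ/+ US and at 272, 246 and 314 CPM in Δ/+ LPS. Its Δ/DN values were 91.4, 90.6, 105 and 93.3 CPM without LPS and 285, 227, 297 and 205 CPM with it. The ranges were apart in both genotypes, with log2 fold changes of 1.37 ± 0.14 (adjusted p = 1.24e-06) and 1.42 ± 0.13 (adjusted p = 4.78e-07). Usp7 itself rose less, by 0.44 and 0.47. Usp48, a nuclear protease, fell. Its levels were 88.1, 93.4, 86.9 and 93.8 CPM in Δ/+ US and 39.9, 42.1 and 38.0 CPM in Δ/+ LPS. The Δ/DN libraries had 84.9, 95.6, 68.3 and 98.4 CPM without LPS and 35.0, 42.0, 45.0 and 48.4 CPM with it. The log2 fold changes of Usp48 were −1.16 ± 0.13 (adjusted p = 3.41e-06) and −1.03 ± 0.11 (adjusted p = 3.94e-06), with no overlap between treatments.

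Usp43, a member through its LPS libraries alone, was not detected in the 4 Δ/+ US libraries and stood at 0.245, 0.355 and 0.34 CPM in Δ/+ LPS. That is at least 7.65-fold higher, taking 3 counts in each empty library as the limit that a count of 0 allows (0.041 CPM on average). In Δ/DN it was seen in 1 of the 4 US libraries at 0.0243 CPM and in all LPS libraries at 0.0667, 0.0888, 0.421 and 0.142 CPM. It passed the test there as well, though not within set 2 alone (adjusted p = 0.111). Usp43 met the read minimum only where it is high, so these values describe it and its tests are no support for a rise. The limits from empty libraries cover counting error only. The other fallers were Otud3 (−0.77 in Δ/+ and −0.8 in Δ/DN), Usp28 (−0.76 and −0.78) and Usp37, a regulator of entry into S phase (−0.32 and −0.26), whose call held in 4 of 7 refits in Δ/+ and in 3 of 8 in Δ/DN, where its groups overlapped. Usp24 rose in Δ/DN alone (0.21), with −0.1 in Δ/+. Usp1, which removes ubiquitin from PCNA and FANCD2 (0.27 and −0.01), and Usp44 of the mitotic checkpoint, at no more than 0.471 CPM, did not pass in either genotype. The summed level of 16 S phase genes was 267 to 363 CPM in Δ/+ US and 257 to 263 CPM in Δ/+ LPS, and 405 to 578 and 292 to 394 CPM in Δ/DN. Of those genes 2 rose and 10 fell in Δ/+, and 13 fell in Δ/DN, and their part in these changes was not tested.

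All 4 members with parts in chromatin, splicing and the nucleolus fell in Δ/+, and 3 fell in Δ/DN. Of all genes tested, 25.3% fell in Δ/+ and 25.1% in Δ/DN. No member was counted under more than 1 role, and the lists were chosen with earlier results known. Usp12, which rose, and Usp48, which fell, also act on histones but were counted under other roles. The counts by role rest on this placement. Usp36 is a nucleolar protease required for ribosomal RNA processing. It stood at 33.8, 42.6, 35.8 and 46.8 CPM in Δ/+ US and at 16.1, 16.5 and 15.3 CPM in Δ/+ LPS. In Δ/DN it stood at 24.6, 24.7, 24.6 and 27.7 CPM without LPS and at 10.6, 12.6, 11.4 and 13.4 CPM with it. The 4 groups followed each other without overlap, Δ/+ US highest and Δ/DN LPS lowest. The LPS changes were −1.27 ± 0.11 for Δ/+ (adjusted p = 3.59e-07) and −1.08 ± 0.1 for Δ/DN (adjusted p = 6.42e-07) on the log2 scale. With Usp46 above, Usp39, a catalytically inactive spliceosome factor, fell by 0.3 and 0.32 on the log2 scale, with overlapping groups in Δ/DN (22.2 to 27.2 CPM without and 18.8 to 22.8 CPM with LPS). Usp49, which acts on histone H2B, passed in Δ/+ alone (−0.86, held in 1 of 7 refits), with −0.66 in Δ/DN.

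**Figure D3:**
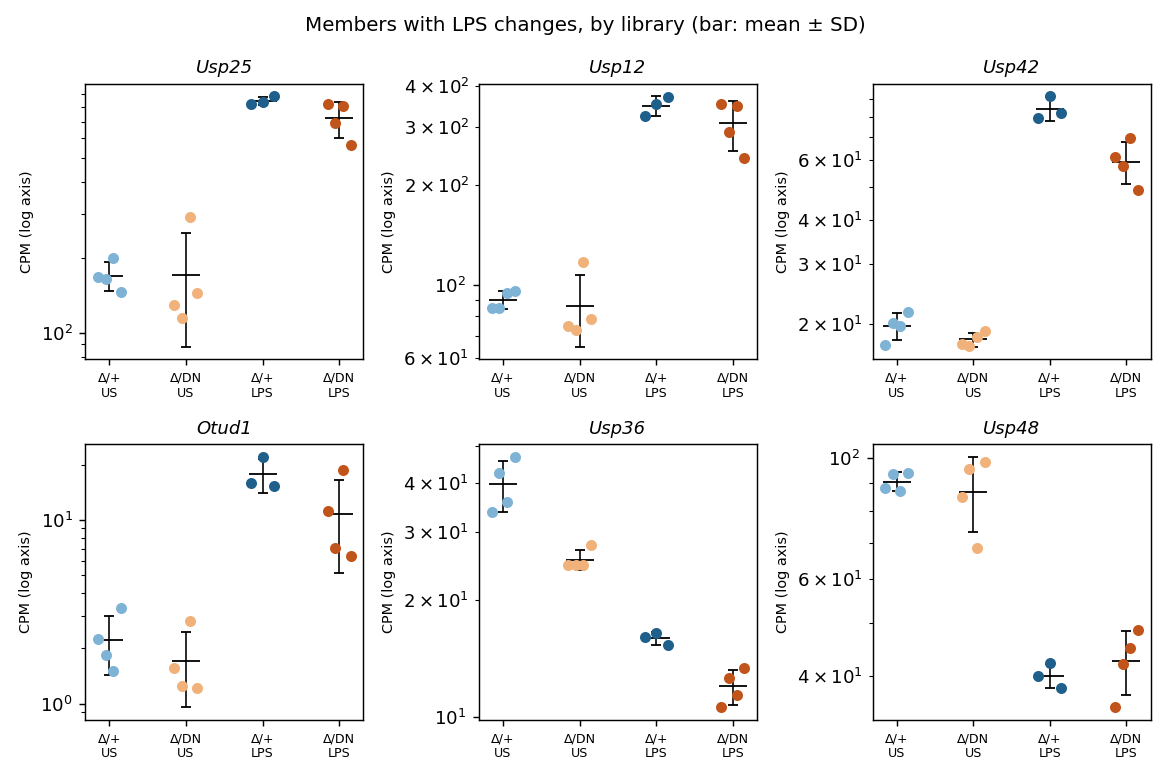
Level (CPM, log axes) of 6 members in each of the 15 libraries, by genotype and treatment, with the mean ± SD of each group as a bar. Usp25, Usp12, Usp42 and Otud1 are higher in every LPS library than in every US library, and Usp36 and Usp48 are lower.

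The 13 members placed on endosomes, membranes and organelles were divided, 5 up and 4 down in Δ/+ and 5 up and 5 down in Δ/DN. That is 69.2% and 76.9% called, against 47.7% and 48.2% of all genes. Usp53, a tight-junction protein, rose by 1.39 and 1.26 on the log2 scale. Usp32, which acts on the late-endosomal GTPase RAB7, rose by 1.01 and 1.03. Smaller rises were seen for Usp54 (0.41 and 0.51), for Stambp, the endosomal protease AMSH (0.34 and 0.42), and for Usp19, which has a membrane-anchored form in the endoplasmic reticulum (0.23 and 0.18). The Usp19 change in Δ/DN was no longer called when the culture was taken as a block (adjusted p = 0.0671), and it held in 2 of 8 refits, against 3 of 7 in Δ/+.

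The fallers of this role included genes of both the mitochondrion and the Josephin family. Usp30, an outer mitochondrial membrane protease that opposes Parkin, stood at 14.5, 13.9, 15.7 and 18.0 CPM in Δ/+ US and at 7.02, 9.13 and 6.53 CPM in Δ/+ LPS. In Δ/DN it went from 14.6, 15.9, 13.4 and 16.1 CPM to 6.69, 6.67, 7.53 and 8.99 CPM. The level with LPS was thus below every US library in both genotypes, with log2 fold changes of −0.99 ± 0.14 (adjusted p = 3.73e-05) and −1.02 ± 0.13 (adjusted p = 1.12e-05). Usp35 fell by 1.41 and 1.29 on the log2 scale.

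Atxn3 encodes ataxin-3, the polyglutamine protein of spinocerebellar ataxia that works with the ATPase VCP. It stood at 53.4, 58.7, 59.0 and 66.1 CPM in Δ/+ US and at 30.6, 31.1 and 32.0 CPM in Δ/+ LPS. The Δ/DN values were 55.1, 57.2, 56.3 and 59.9 CPM without LPS and 41.3, 44.6, 37.2 and 46.1 CPM with it. The US libraries of the genotypes overlapped, and the Δ/+ LPS libraries lay below the Δ/DN LPS libraries. The log2 fold changes were −0.91 ± 0.09 (adjusted p = 1.38e-06) and −0.43 ± 0.08 (adjusted p = 0.000446). Josd1, a Josephin protease of the plasma membrane, had 32.7, 27.9, 28.8 and 34.6 CPM in Δ/+ US and 16.6, 15.4 and 15.6 CPM in Δ/+ LPS. In Δ/DN it had 30.0, 29.2, 29.9 and 31.7 CPM without LPS and 19.9, 21.7, 18.7 and 23.7 CPM with it. Again all LPS libraries were below all US libraries, with log2 fold changes of −0.94 ± 0.1 (adjusted p = 2.23e-06) and −0.52 ± 0.09 (adjusted p = 0.000182). Josd2 passed in Δ/DN alone (−0.52), with −0.27 in Δ/+. Stambpl1, a relative of Stambp (0.14 and 0.1), Usp33 (0.07 and 0.02) and Usp6nl (0.17 and 0.12) passed in neither.

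Of the 6 members of the proteasome and of free ubiquitin recycling, none rose, and 3 fell in each genotype. The share called, 50.0% in each, was close to the 47.7% and 48.2% of all genes. Usp5 (−0.46 and −0.25) and Uchl3 (−0.87 and −0.76) fell in both. The Usp5 call in Δ/DN was lost without culture 3 (−0.14, adjusted p = 0.18) and within set 2 alone (−0.12, adjusted p = 0.358). The Δ/DN calls of Josd2, Otub2 and Uchl4 were lost without culture 3 as well (adjusted p = 0.0522, 0.0674 and 0.0665). Usp14, which is bound to the proteasome, fell in Δ/+ alone (−0.46), with −0.12 in Δ/DN. Uchl4 fell in Δ/DN alone (−1.23), with −0.67 in Δ/+, at 0.3 to 1.55 CPM in all libraries. The proteasome-bound Uchl5 (−0.02 and −0.15) and Uchl1, best known from neurons (0.09 and 0.38), did not pass. Among the remaining 5 genes, Usp40 (0.71 and 0.5) and Usp34, which acts on axin in Wnt signalling (0.28 and 0.41), rose, and Otud6b fell (−0.69 and −0.36). Usp11 (0.46 and 0.16) and Usp45 (0.01 and 0.12) passed in neither genotype. Usp17ld, placed in none of these roles, with no reads in Δ/+ US and likewise a member through its LPS libraries alone, was at least 4.09-fold higher on average in Δ/+ LPS (0.273, 0.177 and 0.0524 CPM). The last of these values lies below the limit of 3 counts in Δ/+ US replicate 1 (0.0655 CPM). As for Usp43, its call in Δ/+ is no support for a rise. Usp17ld was not called in Δ/DN.

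The second question was which members differed between the genotypes. Without LPS, 1 of 57 was higher and 7 were lower in Δ/DN than in Δ/+, which is 14.0% against 10.5% of all genes tested (5.01% higher, 5.45% lower). With LPS, 3 were higher and 2 lower, 8.77% against 8.6% of all genes (5.37% higher, 3.23% lower). The share with LPS was close to that of all genes. The members' median log2 difference was −0.08 without and −0.11 with LPS, beside 0.01 over all genes in each. Groups did not overlap for 13 members without LPS (22.8%, against 12.5% of all genes) and for 15 with LPS (26.3%, against 24.6%). Set 2 alone, with 2 Δ/DN cultures, called 1 higher and 6 lower without LPS, where 6.01% of all genes were called, and 3 higher and 4 lower with LPS, where 9.14% were. Set 3 held 1 Δ/+ library without LPS and none with it, and was not fitted alone for this comparison.

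The S phase sums given above differed between the genotypes without overlap, and 15 of the 16 genes were higher in Δ/DN without LPS, with 10 higher and 1 lower with LPS. Other marker lists moved with genotype as well. In US libraries the 10 macrophage markers summed to 1937 to 2105 CPM in Δ/+ and 2271 to 2717 CPM in Δ/DN (4 higher, 1 lower). The 6 stromal and endothelial markers summed to 22.4 to 29.7 CPM in Δ/+ and 10.1 to 15.9 CPM in Δ/DN (2 higher, 2 lower). The 5 progenitor markers summed to 20.4 to 22.4 CPM and 18.2 to 43.3 CPM, with 2 of the 4 tested higher. The 4 monocyte markers summed to 703 to 984 CPM and 578 to 789 CPM, with Cd14 called lower. In LPS libraries the macrophage sums were 1828 to 1889 CPM in Δ/+ and 2251 to 2786 CPM in Δ/DN (2 higher, 1 lower), the monocyte sums 1324 to 1492 CPM and 1001 to 1141 CPM (none called), the stromal and endothelial sums 18.7 to 30.7 CPM and 11.7 to 14.4 CPM (1 lower), and the progenitor sums 19.4 to 22.3 CPM and 24.9 to 49.1 CPM (1 higher, 1 lower). None of these 4 sums overlapped between the genotypes with LPS. The 6 erythroid markers did not overlap either, at no more than 2.76 CPM in sum. Sums of 8 mast cell and basophil markers were apart in US libraries alone, at 23.2 to 27.5 CPM in Δ/+ and 27.8 to 57.7 CPM in Δ/DN (1 higher). Those of 5 plasmacytoid dendritic cell markers were apart in LPS libraries alone, at 516 to 578 CPM in Δ/+ and 332 to 507 CPM in Δ/DN. Of these 5, 1 was called higher in Δ/DN. Sums of the 15 dendritic cell markers overlapped between the genotypes with and without LPS. Of these 15, Kmo (log2 difference 2.06), Xcr1 (2.64, group means 0.0314 and 0.167 CPM) and Dpp4 (1.24) were higher in Δ/DN without LPS. With LPS 1 was higher, and none was lower in either comparison. The neutrophil sums overlapped as well, with 1 of 10 markers higher in each comparison. No gene of these lists was at 0 in all libraries. The part of these cells in the differences below was not tested.

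Without LPS the difference with the smallest p was that of Usp36. The values given above average 39.8 CPM in Δ/+ US and 25.4 CPM in Δ/DN US. All Δ/DN libraries lay below all Δ/+ libraries, the log2 difference was −0.68 ± 0.1 (adjusted p = 0.00346), and it was called in 8 of 8 refits that left out 1 library. Usp31, reported to act on NF-kB signalling, was also lower. Its libraries stood at 55.2, 65.0, 56.7 and 86.4 CPM in Δ/+ US and at 39.8, 35.5, 44.2 and 42.4 CPM in Δ/DN US. The groups did not overlap, the log2 difference was −0.75 ± 0.12 (adjusted p = 0.00538), and 8 of 8 refits called it. With LPS the Usp31 values were 60.9, 65.9 and 60.9 CPM in Δ/+ and 60.4, 57, 67.3 and 47.4 CPM in Δ/DN, which overlapped. The rise of Usp31 in Δ/DN and this difference share the Δ/DN US libraries.

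Usp11, an X-linked relative of Usp4 and Usp15, was the gene that was higher. It stood at 1.83, 0.871, 1.33 and 0.594 CPM in Δ/+ US and at 3.64, 3.97, 1.52 and 3.23 CPM in Δ/DN US. Replicate 3 of Δ/DN lay within the Δ/+ range and the others were above it. The log2 difference was 1.63 ± 0.29 (adjusted p = 0.00794), called in 7 of 8 refits and not without Δ/+ replicate 4. With LPS it was again higher, at 1.54, 1.34 and 2.26 CPM in Δ/+ and 3.7, 4.17, 2.39 and 3.33 CPM in Δ/DN. Those groups did not overlap, and the log2 difference was 1.32 ± 0.33 (adjusted p = 0.0291, 4 of 7 refits). Without the set term that call was lost (adjusted p = 0.123). Its level in Δ/DN culture 4, the culture with Xist, was within the range of the other Δ/DN libraries.

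Otud6b, reported to act in protein synthesis, stood at 38.6, 39.7, 42.5 and 43.9 CPM in Δ/+ US and at 31.5, 30.2, 34.8 and 34.1 CPM in Δ/DN US. There was no overlap, with a log2 difference of −0.38 ± 0.08 (adjusted p = 0.0129, 6 of 8 refits). Usp24, a very large USP protease, stood at 146, 161, 158 and 173 CPM and at 124, 124, 129 and 131 CPM. All Δ/DN libraries were again the lower ones, with a log2 difference of −0.34 ± 0.07 (adjusted p = 0.0134, 6 of 8 refits). Usp10 (−0.42, adjusted p = 0.0179, 4 of 8 refits), Otud4 (−0.36, adjusted p = 0.0206, 3 of 8) and Usp34 (−0.29, adjusted p = 0.0338, 3 of 8) were lower as well. The Usp10 groups overlapped. Without Δ/+ replicate 4, the only Δ/+ library of set 3, the counts without LPS were 0 higher and 2 lower. In that refit 0.835% of all genes were called. They were 1 higher and 2 lower without Δ/DN replicate 2 (1.58% of all genes called). Without Δ/+ replicate 2 (2.43%) or Δ/DN replicate 1 (6.56%) they were 1 higher and 4 lower. Without Δ/DN replicate 3 (15.3%) they were 2 higher and 8 lower.

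**Figure D4:**
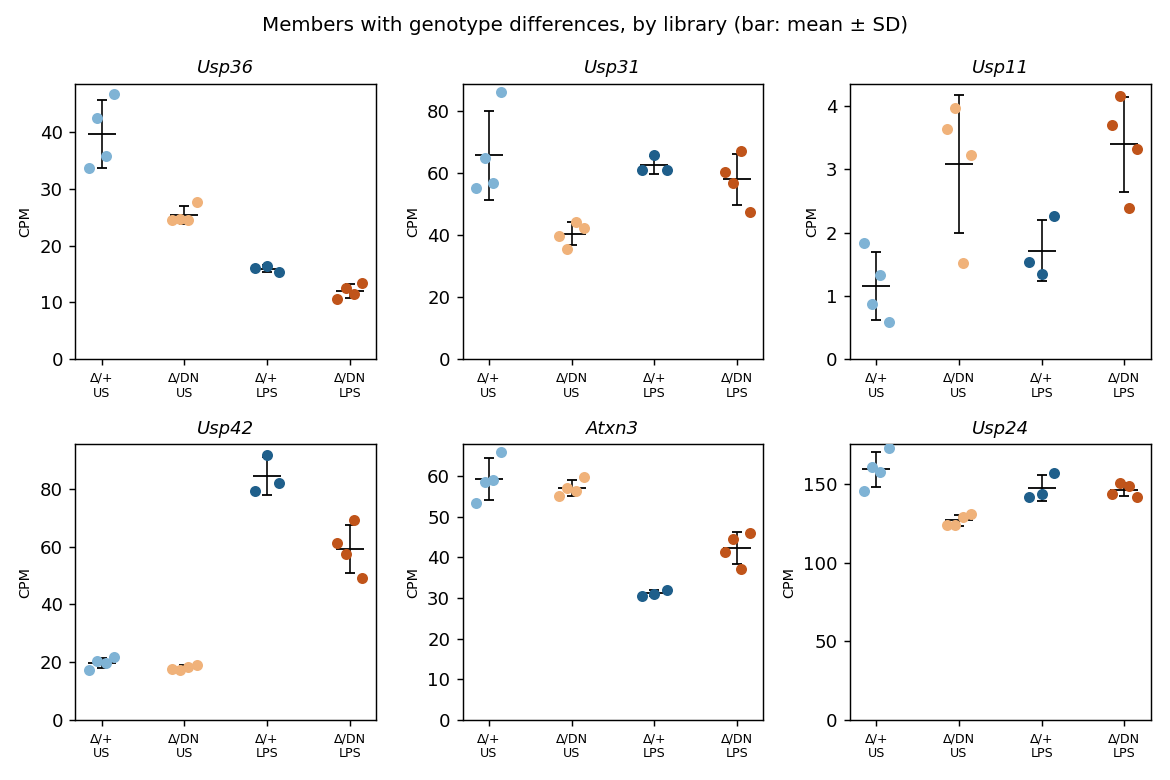
Level (CPM, linear axes from 0) of 6 members in each of the 15 libraries, with the mean ± SD of each group as a bar. Usp36 is lower in Δ/DN with and without LPS, Usp31 and Usp24 are apart without LPS and overlap with it, Usp42 is lower and Atxn3 higher in Δ/DN LPS, and Usp11 is higher in Δ/DN with 1 overlapping US library.

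With LPS the difference with the smallest p was Usp42, at 84.3 CPM on average in Δ/+ and 59.3 CPM in Δ/DN. The libraries given above did not overlap, and the log2 difference was −0.55 ± 0.11 (adjusted p = 0.0146, 5 of 7 refits). Usp36 averaged 16 CPM in Δ/+ LPS and 12.0 CPM in Δ/DN LPS, a log2 difference of −0.49 ± 0.11 (adjusted p = 0.0218, 4 of 7 refits). Atxn3 was higher in Δ/DN LPS, 42.3 against 31.2 CPM, by 0.41 ± 0.09 (adjusted p = 0.0214, 4 of 7 refits). Josd1 was higher as well, 21.0 against 15.9 CPM, by 0.36 ± 0.1 (adjusted p = 0.0451), and 1 of 7 refits called it. Without Δ/+ LPS replicate 2 or Δ/DN LPS replicate 2 no member was called in either direction. Only 0.416% and 0.81% of all genes were called in those refits. Without Δ/+ LPS replicate 1 the counts were 0 higher and 1 lower, where 1.44% of all genes were called. Without Δ/DN LPS replicate 1 they were 2 and 4 (8.04% of all genes), and without Δ/DN LPS replicate 3 they were 3 and 5 (10.1%). Interferon-stimulated genes, of which none of 17 was called between the genotypes, summed to 35421 to 41419 CPM in Δ/+ LPS and 16923 to 31032 CPM in Δ/DN LPS, and their part was not tested. Usp25, Otud1, Otud5 and Usp12 were not called between the genotypes with LPS (log2 differences −0.32, −1.02, −0.08 and −0.24).

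A further question was whether the LPS change itself differed between the genotypes. No member was called for this difference by edgeR, none by DESeq2, and 9 had an unadjusted p under 0.05 in edgeR's test. Of all genes tested, 0.00479% were called. The 3 smallest p belonged to Atxn3, whose fall was smaller in Δ/DN by 0.48 ± 0.12 on the log2 scale (adjusted p = 0.256), Josd1 with 0.42 ± 0.13 (adjusted p = 0.337) and Usp31 with 0.53 ± 0.18 (adjusted p = 0.375). Over the 52 members with a mean of at least 1 CPM, differences ran from −0.77 for Otub2 to 0.59 for Usp2, with standard errors of 0.1 to 0.62. The members called in 1 genotype alone are therefore not shown to respond differently in the other.

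Other genes of the ubiquitin system were measured in the same libraries, from lists of companions of the 57. With LPS, 47.7% of all genes were called in Δ/+ and 48.2% in Δ/DN. Between the genotypes, 10.5% of all genes were called without LPS and 8.6% with it. Of 23 deubiquitinases whose names lie outside the rule, 14 rose and 4 fell with LPS in Δ/+, and 13 rose and 3 fell in Δ/DN. Tnfaip3, which encodes the NF-kB brake A20, rose from 140 to 1958 CPM on average in Δ/+ and from 98.0 to 1111 CPM in Δ/DN. These are log2 fold changes of 3.84 ± 0.25 (adjusted p = 3.06e-08) and 3.51 ± 0.23 (adjusted p = 4.57e-08). With LPS it was lower in Δ/DN (log2 difference −0.88 ± 0.25, adjusted p = 0.0426). Vcpip1, the VCP-associated protease, went from 118 to 410 CPM in Δ/+, and Zup1, a protease of genome stability, from 35.8 to 249 CPM. Mindy2 fell from 80.5 to 30.8 CPM. Usp16 (−0.31) and Mindy1 (−0.46) were lower in Δ/DN without LPS, and Usp22, the deubiquitinase of the SAGA complex, was higher in Δ/DN with LPS (0.55). Genotype calls of these and the other companion genes were not followed through the refits that left out 1 library. How firmly they hold is therefore not known.

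Genes that supply ubiquitin rose as well. Of 7 ubiquitin and ubiquitin-activating (E1) genes, 6 rose in each genotype and none was called between the genotypes. Uba1, the main E1, went from 273 to 515 CPM in Δ/+ and from 263 to 516 CPM in Δ/DN. Of the 17 partners and cofactors of members, 8 rose and 2 fell in Δ/+ and 12 rose and 2 fell in Δ/DN. Wdr48, the shared cofactor of Usp1, Usp12 and Usp46, rose from 42.6 to 65.1 CPM in Δ/+ and from 42.4 to 68.1 CPM in Δ/DN. Stam2, the endosomal partner of Usp8 and Stambp, rose from 29.6 to 46.5 CPM in Δ/+. G3bp1, the partner of Usp10, fell with LPS (−0.5 in Δ/+), as Usp10 did, and was also lower in Δ/DN without LPS (−0.35, adjusted p = 0.0204).

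The linear ubiquitin and TRAF list rose in 12 of 16 genes in Δ/+ and 13 of 16 in Δ/DN, with none falling. Traf1 went from 66.4 to 440 CPM and Tab2 from 114 to 379 CPM in Δ/+. Between the genotypes 4 genes of this list were lower in Δ/DN without LPS, namely Ikbkg, the regulatory subunit of the IKK complex (126 against 77.0 CPM, log2 difference −0.82 ± 0.11, adjusted p = 0.00254), Map3k7 (−0.24), Tab3 (−0.3) and Tnip1 (−0.34). With LPS Tab2 was lower (−0.45). Of all genes tested, 5.45% were lower in Δ/DN without LPS and 3.23% with it. All 5 genes of the ISG15 system, the ubiquitin-like modifier of the interferon response, rose in both genotypes. Its protease Usp18 went from 43.7 to 790 CPM in Δ/+ and from 59.7 to 654 CPM in Δ/DN. The 12 NF-kB target genes all rose in both genotypes, and the 17 interferon-stimulated genes did too. The median log2 fold change with LPS in Δ/+ was 0.3 for the deubiquitinases outside the rule, 0.83 for ubiquitin and E1 genes, 0.23 for the partners, 0.93 for the linear ubiquitin and TRAF list and 3.71 for the ISG15 system, beside 0.14 for the 57 members.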

How the data were processed

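Per the labels, total RNA of the 15 libraries was depleted of ribosomal RNA (KAPA RNA HyperPrep, RiboErase). The authors deposited 1 table per library, with the count of reads and a length for each gene, unnormalised. Among the tools in the submitters' processing notes are the aligner HISAT2 2.2.1, the counter featureCounts and the trimmer Trimmomatic 0.33, with the builds mm39 and GRCm39. Their settings and the use of strand are not given in the sources used here. A pass of the read minimum depends on depth, so members near it are less certain. The deposited length was not an exon length (median 4.684 times the GENCODE exon length over members), so RPKM used exon lengths of GENCODE basic genes, matched by symbol for all 57.

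All 15 libraries entered 1 edgeR 4.0.16 model (limma 3.58.1, R 4.3.3) of 4 groups and library set, with TMM, filterByExpr (minimum count 10), robust quasi-likelihood F tests and Benjamini-Hochberg adjustment over 20865 genes. Calls need an adjusted p under 0.05, and log2 differences are given ± SE. US and LPS libraries of a culture are tied by library name. Their deviations from group means correlated at 0.064 to 0.428 over the 7 cultures, and culture was an alternative block. The other alternatives were DESeq2 1.42.0, its size factors, no low-count filter, no set term, single sets, and omission of libraries or of Δ/DN cultures 3 and 4. The test was checked on simulated counts.

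Members and lists were chosen with earlier results of these data known. Named were all called members, with values per library for the 4 smallest p in each direction, the 3 smallest p where fewer than 3 were called, the highest and lowest 5 levels, and up to 4 called genes of each companion list. The values of 1 gene that this rule names are not reported here. Otud1 and Usp25 were given per library after their values were seen. The limits taken from counts of 0 cover counting error only, as reads carried no molecular identifiers. In most tables a count of 2 was commoner than 1 or 3, so limits from counts may be too narrow.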

Additional observations from a re-analysis of the deposited data

Results flagged for a closer look

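Among 18 named members and 3 groups of 4 libraries (54 groups checked), 5 had 1 library far from the other 3. Chance marks about 1 in 20 groups where values are normal and genes are not picked by their values. These members were picked by p, and Usp25, Otud1, Usp43 and Usp17ld were added by choice. The 5 flags are therefore not to be weighed against that rate. Usp25 stood at 291 CPM in Δ/DN US replicate 3, with the others at 115 to 144 CPM. Usp12 stood at 117 CPM in the same library, with the others at 72.6 to 78.8 CPM. Usp36 stood at 27.7 CPM in Δ/DN US replicate 4, with the others at 24.6 to 24.7 CPM. Usp17ld stood at 0.253 CPM in Δ/DN LPS replicate 3, with the others at 0.0473 to 0.0667 CPM. Usp43 had reads in Δ/DN US replicate 1 alone of its group, at 0.0243 CPM, and any read beside empty libraries would be flagged.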

How the results depend on the processing

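Over 1754 recomputed changes of named members, none reversed, 1552 kept their side of the threshold and 202 lost the call. The counts of members called with LPS in either genotype stayed within 1.5 times under every alternative but set 3 alone, an alternative added after the data were seen, which called 4 up and 1 down of the 25 and 20 in Δ/DN with 2 cultures. With the culture as a block the LPS counts were 23 up and 19 down in Δ/+ and 25 up and 20 down in Δ/DN, and of the LPS calls Usp19 in Δ/DN was lost. Leaving out 1 library gave 17 to 24 up and 16 to 19 down in Δ/+, where 40.4% to 45.9% of all genes were called. In Δ/DN it gave 20 to 25 up and 17 to 20 down, where 41.4% to 46.8% of all genes were called. The genotype counts moved more. Without LPS the 1 higher member became 3 with DESeq2 (16.5% of all genes called) and 2 without Δ/DN culture 3 (16.8%). Leaving out 1 library gave 0 to 2 higher and 2 to 8 lower, with 0.835% to 15.3% of all genes called. With LPS the 2 lower members became 6 with DESeq2 (14.2% of all genes called), 4 in set 2 alone (9.14%) and 6 without culture 3 (13%). They became 4 without culture 4 (9.31%) and 4 without both (8.54%). Leaving out 1 library gave 0 to 3 higher and 0 to 5 lower, with 0.416% to 10.1% of all genes called. With the replicate number as a block across genotypes, 0 members were called in either direction, with or without LPS. That fit called 0 of all genes without LPS and 0.0423% with it, so its 0 is not particular to the members. The sample names do not say whether replicate numbers pair samples across genotypes. Correlations by replicate number (−0.089 to 0.146) overlapped those within cultures (0.064 to 0.428), so they do not settle it. Only libraries of 1 stimulus enter that fit, which uses fewer samples. The causes of these moves were not tested. The difference of the LPS effects stayed at 0 members called in every alternative run. Depth limits Usp43, Usp17ld, Usp44 and Uchl4, the members with the fewest reads.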
